A study of Homo sapiens with 6 samples.

Results

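The genes described here encode the MHC class I molecule and the machinery that loads it with peptide. They are the heavy chain genes HLA-B, HLA-C, HLA-E and HLA-F, the light chain gene B2M, the peptide transporter genes TAP1 and TAP2, the tapasin gene TAPBP and NLRC5. They were found by symbol, with no measured value in the rule, although the set was chosen with earlier results of these data known. These genes are 9 of the 30230 genes in the deposited count table. All 9 passed the filter on low counts, which left 17076 genes to be tested. The libraries came from A549, an established human lung adenocarcinoma line, with 3 libraries of a negative control (NC) and 3 after silencing of FSCN1 (siFSCN1), which encodes fascin, a protein that bundles actin filaments. The study's methods describe transfection with a scramble siRNA for NC and with siRNAs against FSCN1 for siFSCN1, of which a single one was used for sequencing, whereas the sample labels give a control plasmid for NC. Neither the plasmid nor the siRNA was described further in the labels, which give no interferon or other treatment in either group and no time after transfection. The study's methods do state a time of collection. The comparison asks how the transcripts of these genes differ when FSCN1 is silenced. With a single siRNA sequenced, effects of that siRNA on other genes cannot be told apart from those of FSCN1 loss.

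A class I molecule is a heavy chain bound to beta-2-microglobulin, the product of B2M, and to a short peptide. The proteasome cuts proteins into peptides, the TAP1 and TAP2 heterodimer carries them into the endoplasmic reticulum, and tapasin holds the empty class I molecule beside the transporter until a peptide of sufficient affinity binds. NLRC5 is a nuclear transactivator of class I genes, and interferon gamma raises the expression of the whole set, in part through IRF1. Tumour cells with little class I on their surface are poorly seen by cytotoxic T cells. RNA levels do not show how much class I reaches the cell surface, which was not measured here.

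The NC libraries held between 27967301 and 36560919 counts and the siFSCN1 libraries between 30908982 and 32676062. FSCN1 had 211, 220 and 212 CPM (read counts relative to library size, after TMM scaling) in NC replicates 1, 2 and 3 and 18.2, 11.8 and 13.2 CPM in siFSCN1 replicates 1, 2 and 3. Its log2 fold change was -3.89 (SE 0.094, edgeR adjusted p = 8.12e-16), and 6.75% of its NC level remained. All 8 lung epithelial markers examined were at or above 1 FPKM (fragments divided by gene length and by sequencing depth) in every library, with summed levels of 7338.9 to 7958.56 FPKM in NC and 7133.35 to 7557.34 FPKM in siFSCN1. Within that sum the keratins were lower in siFSCN1, with KRT18 at 1675.44 to 1946.66 FPKM in NC against 939.24 to 1156.8 FPKM, and KRT7 and KRT8 likewise without overlap. ALDH1A1 (1610.59 to 1729.18 FPKM in NC, 2317.92 to 2411.55 FPKM in siFSCN1) and CDH1 (9.02 to 9.41 FPKM in NC, 25.94 to 26.65 FPKM in siFSCN1) were higher. The part of these shifts in the class I values was not tested. Of 9 immune cell markers, 5 had a row, and their summed level was 3.22 to 3.72 FPKM in NC and 4.12 to 5.15 FPKM in siFSCN1. Most of that sum was CD14, at 2.79 to 2.99 FPKM in NC and 3.86 to 4.82 FPKM in siFSCN1, while the leukocyte antigen gene PTPRC was at 0 to 0.01 FPKM in both groups. The fibroblast markers summed to at most 0.41 FPKM and the endothelial markers to at most 0.04 FPKM in any library. The labels do not state that the replicates were separate cultures, so the p-values measure the spread between these libraries, although the study calls them biological replicates. In bulk RNA, fewer cells of a kind and less RNA per cell cannot be told apart.

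The heavy chain, transporter and tapasin genes lie together in the MHC on chromosome 6 (GENCODE v44, GRCh38). HLA-F (ENSG00000204642.14) spans chr6:29722775-29738528 and HLA-E (ENSG00000204592.9) chr6:30489509-30494194, both on the plus strand. HLA-C (ENSG00000204525.17, chr6:31268749-31272130) and HLA-B (ENSG00000234745.13, chr6:31353872-31367067) follow on the minus strand. In the class II region of the same chromosome are TAP2 (ENSG00000204267.16, chr6:32821833-32838739) and TAP1 (ENSG00000168394.12, chr6:32845209-32853816), with TAPBP (ENSG00000231925.12, chr6:33299694-33314284) beyond them, all 3 on the minus strand. B2M (ENSG00000166710.21, chr15:44711358-44718851) and NLRC5 (ENSG00000140853.16, chr16:56989485-57083531) are on other chromosomes, on the plus strand. Genes on the opposite strand overlap 21.0% of the exonic bases of TAPBP, 14.2% of those of TAP1, and at most 15.6% of those of HLA-F and 14.5% of those of HLA-B by any single gene, so their counts rest on a strand setting that is not given in the sources used here.

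Class I genes are known for a compact promoter in which a kappa B element, an interferon-response element and a CCAAT-containing module lie close to the start of transcription. The 250 bases before the RefSeq start site (GRCh38.p14) are shown for 6 members, 4 that were lower in siFSCN1 and 2 that were not called with TMM scaling, so that both kinds can be read side by side. Capitals mark every match, on either strand, to GAAANNGAAA (the core of an interferon-response element), to the kappa B consensus and to CCAAT (read as ATTGG on the other strand).
HLA-B, chr6:31357180-31357429, minus strand: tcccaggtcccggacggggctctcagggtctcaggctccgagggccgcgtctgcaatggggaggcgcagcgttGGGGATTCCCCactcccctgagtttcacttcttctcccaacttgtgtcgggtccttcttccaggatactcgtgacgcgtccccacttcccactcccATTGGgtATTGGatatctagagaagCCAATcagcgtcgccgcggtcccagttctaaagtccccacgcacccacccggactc
HLA-C, chr6:31272093-31272342, minus strand: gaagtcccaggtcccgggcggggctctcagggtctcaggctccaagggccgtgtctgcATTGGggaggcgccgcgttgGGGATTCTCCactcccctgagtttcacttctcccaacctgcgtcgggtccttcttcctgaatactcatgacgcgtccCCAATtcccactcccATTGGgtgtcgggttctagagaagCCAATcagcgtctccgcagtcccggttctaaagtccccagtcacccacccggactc
HLA-F, chr6:29723184-29723433, plus strand: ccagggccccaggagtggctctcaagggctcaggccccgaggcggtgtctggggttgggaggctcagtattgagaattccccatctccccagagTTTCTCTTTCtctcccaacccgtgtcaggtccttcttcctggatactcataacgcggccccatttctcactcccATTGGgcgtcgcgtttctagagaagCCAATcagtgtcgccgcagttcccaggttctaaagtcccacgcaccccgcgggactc
B2M, chr15:44711267-44711516, plus strand: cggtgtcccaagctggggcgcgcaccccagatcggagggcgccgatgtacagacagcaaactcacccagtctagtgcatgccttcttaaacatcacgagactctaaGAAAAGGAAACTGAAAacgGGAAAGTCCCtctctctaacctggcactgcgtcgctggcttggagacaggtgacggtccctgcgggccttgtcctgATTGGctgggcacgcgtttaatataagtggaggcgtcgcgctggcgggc
TAP1, chr6:32853705-32853954, minus strand: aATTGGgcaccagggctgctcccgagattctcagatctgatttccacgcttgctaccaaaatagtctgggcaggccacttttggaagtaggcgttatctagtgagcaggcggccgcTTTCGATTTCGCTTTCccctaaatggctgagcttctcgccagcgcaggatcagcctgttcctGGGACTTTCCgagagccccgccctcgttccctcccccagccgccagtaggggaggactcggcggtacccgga
TAPBP, chr6:33314079-33314328, minus strand: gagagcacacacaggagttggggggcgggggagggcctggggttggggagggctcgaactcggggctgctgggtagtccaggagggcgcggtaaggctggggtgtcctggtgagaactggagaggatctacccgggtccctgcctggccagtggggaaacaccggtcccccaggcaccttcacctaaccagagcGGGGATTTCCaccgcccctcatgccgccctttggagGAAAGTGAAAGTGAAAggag
A RefSeq promoter entry was found for 7 of the 9 members, all except HLA-E and NLRC5. TAP1 had more than 1 entry, of which the one that begins farthest upstream is shown.

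Over a window of 250 bases before to 50 bases after the start site, GAAANNGAAA occurred in 5 of the 7 promoters, in HLA-F, B2M, TAP1, TAP2 and TAPBP, and in 3.57% of all 35116 RefSeq promoters. In B2M, TAP1 and TAPBP it occurred as 2 overlapping matches, the first of which began at -144, -134 and -20 from the start site. The kappa B consensus occurred in HLA-B, HLA-C, B2M, TAP1 and TAPBP and in 11.3% of all promoters. In HLA-B and HLA-C it lay at nearly the same place, beginning at -177 and -172. CCAAT occurred in HLA-B, HLA-C, HLA-F, B2M and TAP1 and in 34.6% of all promoters. TGACG, the core of the cyclic AMP response element in the class I module, was matched in HLA-B at -106, in HLA-C at -105, in B2M at -75 and in TAP2 at -35, against 24.6% of all promoters. The B2M promoter, whose gene was not called with TMM scaling, held an interferon-response match, a kappa B match and CCAAT. The TAP1 promoter, whose gene was at 51.5% of its NC level, held all of these too. Whether such matches bear on the changes in level was not tested. Only exact matches to these patterns were sought, so a promoter without a match, such as HLA-B or HLA-C for GAAANNGAAA, may still hold a variant of the element. These matches describe letters in a window and not binding by a factor.

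Of the 9 genes, 6 were lower in siFSCN1, none was higher and 3 did not pass at an adjusted p under 0.05 (edgeR, TMM scaling), and with library totals B2M was called higher as well. The comparison moved a large part of the transcriptome, with 33.2% of all tested genes called lower, 35.1% called higher and 68.3% called in either direction, which is the background against which these calls are read. The genes called lower were TAP1, NLRC5, TAPBP, HLA-B, HLA-E and HLA-C, in order of fitted size, and B2M, HLA-F and TAP2 were not called. The median log2 fold change of all 9 genes was -0.49, beside 0.03 for all tested genes. No member passed a fold change of 2, which 16.5% of tested genes did (11.7% higher and 4.85% lower). In the same 6 genes every siFSCN1 library lay below every NC library in CPM, as was so for 34.4% of tested genes, with 36.8% of tested genes apart in the higher direction and 71.3% in either. In the other 3 members the groups overlapped.

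**Figure D1:**
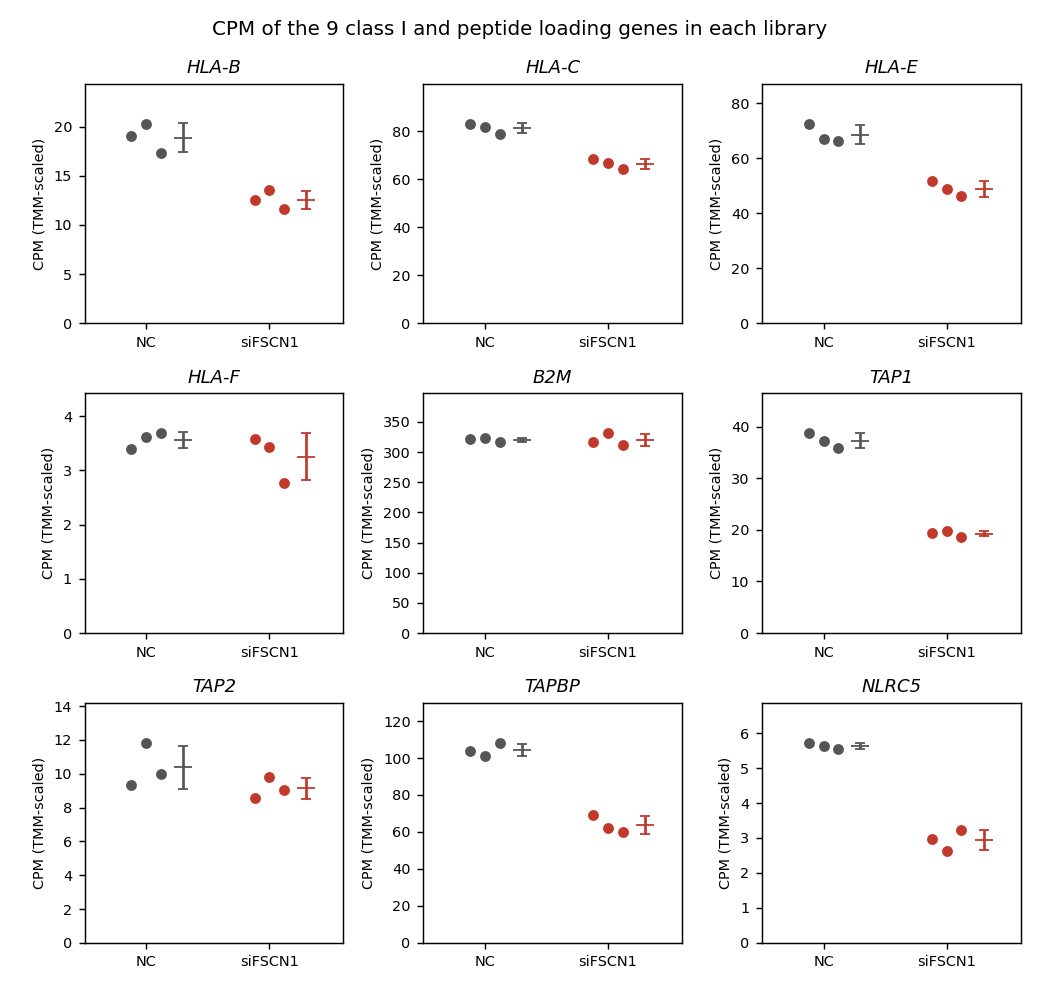
CPM (read counts relative to library size after TMM scaling, linear axis from 0) of each of the 9 genes in the 3 NC libraries (grey) and the 3 siFSCN1 libraries (red), with replicates 1, 2 and 3 from left to right and the mean with its SD (n = 3) beside them. The groups are apart for HLA-B, HLA-C, HLA-E, TAP1, TAPBP and NLRC5, and overlap for HLA-F, B2M and TAP2.

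Among the classical heavy chains, HLA-B and HLA-C, which present peptides to CD8 T cells, both were lower. HLA-B was at 19.0, 20.3 and 17.3 CPM in NC replicates 1, 2 and 3 and at 12.5, 13.5 and 11.6 CPM in siFSCN1 replicates 1, 2 and 3. The lowest NC library lay above the highest siFSCN1 library, and 66.5% of the NC level remained (log2 fold change -0.59, SE 0.087, edgeR adjusted p = 9.32e-06). HLA-C was at 83.2, 81.8 and 78.9 CPM in NC and at 68.5, 66.6 and 64.2 CPM in siFSCN1. Its groups did not overlap either, but its fall was the smallest of the 6, to 81.7% of NC (log2 fold change -0.29, SE 0.047, edgeR adjusted p = 2.24e-05). With libraries scaled by their totals alone the value for HLA-C was -0.10 (edgeR adjusted p = 0.0499). The FPKM ratio of HLA-C to HLA-B within a library was 5.26, 4.85 and 5.46 in NC and 6.57, 5.93 and 6.67 in siFSCN1, without overlap. The reference transcripts of HLA-B and HLA-C share 92.5% of aligned bases. No stretch of 150 bases, the read length, was identical between them or with any other annotated transcript. The study's alignment allowed mismatches, so this cannot settle whether some reads were placed on the wrong gene. The alleles that A549 carries were not compared. A processed pseudogene, DHFRP2, overlaps 30.7% of the annotated exonic bases of HLA-B on the same strand, and which reads the authors' counting gave to each is not given in the sources used here.

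HLA-E, a non-classical heavy chain that presents leader peptides of other class I chains to natural killer cell receptors, was at 72.6, 66.9 and 66.2 CPM in NC and at 51.6, 48.7 and 46.1 CPM in siFSCN1. All siFSCN1 libraries were below all NC libraries, at 71.2% of the NC mean (log2 fold change -0.49, SE 0.055, edgeR adjusted p = 3.07e-07). HLA-F, another non-classical chain that can reach the surface without peptide, was a low transcript, at 3.39, 3.61 and 3.68 CPM in NC and 3.57, 3.43 and 2.76 CPM in siFSCN1. The groups overlapped, and siFSCN1 replicate 3 was the low library. Its log2 fold change was -0.13 with a 95% interval of -0.41 to 0.15 (edgeR adjusted p = 0.435). With 94 to 126 counts per library, counting error alone came to 9.62% of its level. The summed level of the 4 heavy chains was 178, 173 and 166 CPM in NC and 136, 132 and 125 CPM in siFSCN1, with no overlap.

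B2M, the light chain shared by all class I molecules, was the most abundant of the 9 transcripts and did not follow the heavy chains. It was at 321, 324 and 317 CPM in NC and at 317, 331 and 312 CPM in siFSCN1. The siFSCN1 libraries spanned the NC libraries on both sides, and the log2 fold change was -0.0037 (SE 0.036, 95% interval -0.07 to 0.07, edgeR adjusted p = 0.932). In deposited FPKM, which was not scaled by TMM, B2M was at 46.42, 47.27 and 46.69 in NC and at 52.65, 53.49 and 50.93 in siFSCN1. On that scale every siFSCN1 library was higher, and limma on log2(FPKM + 0.1) gave a log2 difference of 0.16 (limma adjusted p = 0.00281). The direction for B2M therefore rested on the scaling, whereas its position relative to the heavy chains did not. Within a library, the summed FPKM of HLA-B, HLA-C, HLA-E and HLA-F divided by that of B2M was 1.11, 1.06 and 1.04 in NC and 0.859, 0.799 and 0.802 in siFSCN1, a mean of 1.07 ± 0.032 (SD, n = 3) against 0.820 ± 0.0336 (SD, n = 3). The ratio in siFSCN1 was 76.6% of that in NC, and the groups did not overlap. With CPM in place of FPKM it was 0.763 of NC. The gene lengths behind the deposited FPKM are not given in the sources used here. The level of the ratio depends on them, so only its change between groups is read. B2M made up 48.9% to 49.7% of the summed CPM of the 9 genes in NC and 57.3% to 59.4% in siFSCN1.

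The TAP transporter works as a heterodimer, and the counted transcripts of its subunits moved unequally. TAP1 was at 38.7, 37.3 and 35.9 CPM in NC and at 19.3, 19.7 and 18.7 CPM in siFSCN1. TAP1 fell to 51.5% of NC, and the gap between the groups far exceeded the spread within either (log2 fold change -0.96, SE 0.052, edgeR adjusted p = 1.35e-11). TAP2 was at 9.34, 11.8 and 10 CPM in NC and at 8.54, 9.80 and 9.06 CPM in siFSCN1, with overlapping groups and a log2 fold change of -0.18 (SE 0.11, 95% interval -0.40 to 0.04, edgeR adjusted p = 0.161). The FPKM ratio of TAP1 to TAP2 went from 5.71, 4.35 and 4.92 in NC to 3.10, 2.76 and 2.84 in siFSCN1, a mean in siFSCN1 of 58.1% of that in NC.

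The value for TAP2 depended on how reads were assigned. TAP2 shares 2023 exonic bases, 19.5% of its exonic length, with a readthrough gene on the same strand (ENSG00000250264), and 34.1% of the 150-base windows of its main transcript occur in that gene too. The readthrough gene had its own row, with 498, 455 and 568 counts in NC and 369, 379 and 405 in siFSCN1, more in every library than the 270, 310 and 344 counts of TAP2 in NC and its 294, 323 and 308 in siFSCN1. It was lower in siFSCN1 (log2 fold change -0.58, SE 0.086, edgeR adjusted p = 9.42e-06). When the counts of both rows were summed, an alternative chosen after seeing the data, the level was 26.6, 29.0 and 26.6 CPM in NC and 19.3, 21.3 and 21.0 CPM in siFSCN1. The sum was lower in siFSCN1 without overlap (log2 fold change -0.42, SE 0.06, edgeR adjusted p = 6.41e-06). Which of the shared reads came from TAP2 cannot be told apart in a table of gene counts.

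TAPBP, the gene of tapasin, which bridges the heavy chain to the transporter and edits the bound peptide, was at 104, 101 and 108 CPM in NC and at 69.3, 62.4 and 59.9 CPM in siFSCN1. Every siFSCN1 library was below every NC library, and 61.1% of the NC level remained (log2 fold change -0.71, SE 0.053, edgeR adjusted p = 1.25e-09). NLRC5, the class I transactivator, was a low transcript, at 5.71, 5.62 and 5.55 CPM in NC and at 2.96, 2.64 and 3.23 CPM in siFSCN1. Its groups were well apart, with 52.5% of the NC level left, a fall that differed from that of TAP1 by less than its standard error (log2 fold change -0.93, SE 0.13, edgeR adjusted p = 3.14e-06). Without siFSCN1 replicate 3 its log2 fold change was -1.01, and it then passed a fold change of 2.

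Per gene length, the order of the 9 transcripts in NC was B2M (46.8 FPKM ± 0.434), HLA-C (25.8 ± 0.484), HLA-E (18.7 ± 0.794), TAPBP (16.4 ± 0.643), TAP1 (6.39 ± 0.185), HLA-B (4.98 ± 0.365), TAP2 (1.29 ± 0.163), HLA-F (0.653 ± 0.0306) and NLRC5 (0.36 in each library), as deposited means ± SD with n = 3. No neighbours in that order overlapped between NC libraries. B2M stood at the 95.8 percentile of tested genes by NC level and NLRC5 at the 21.9 percentile, and HLA-B stood at 69.5, well under HLA-C at 92.2. In siFSCN1 the order was kept except that TAP1 (3.69 FPKM ± 0.0929) and HLA-B (3.71 FPKM ± 0.269) came level, with the TAP1 libraries at 3.58 to 3.75 FPKM inside the HLA-B range of 3.42 to 3.95 FPKM. The FPKM ratio of HLA-C to HLA-B was 5.19 ± 0.311 (SD, n = 3) in NC. Levels between genes rest on the gene lengths used for FPKM, which are not given in the sources used here. B2M has 3121 annotated exonic bases but a main transcript of 943 bases, and HLA-C has 2507 and 1542.

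**Figure D2:**
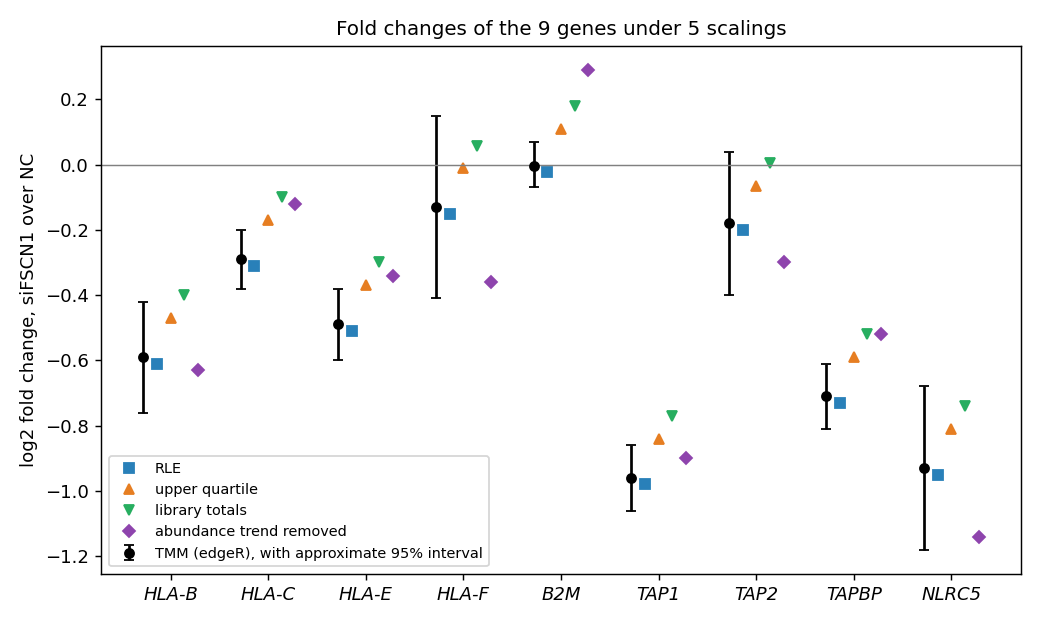
Log2 fold change (siFSCN1 over NC) of each gene under TMM scaling with its approximate 95% interval (black) and under RLE, upper quartile, library-total scaling and removal of the abundance trend (colours). HLA-B, HLA-C, HLA-E, TAP1, TAPBP and NLRC5 lie below 0 under all 5, whereas B2M goes from -0.0037 under TMM to 0.29 with the trend removed.

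The scaling moved all genes together, since the median of all tested genes was 0.03 with TMM, 0.15 with upper quartile scaling and 0.22 with library totals. The 6 genes called lower kept their direction and their call under each of these. Taken relative to that median, TAP1 had a log2 difference of -0.99 under TMM, RLE, upper quartile and library-total scaling, NLRC5 -0.96, TAPBP -0.74, HLA-B -0.62, HLA-E -0.52 and HLA-C -0.32. A shift shared by all genes cancels when the median is subtracted, so the agreement between these scalings was fixed in advance. B2M lay at -0.03 to -0.04 under the same 4 scalings, so under these 4 its log2 fold change was no larger than that of the median gene. The plot of fold changes under 5 scalings shows these shifts for each gene.

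The genes whose level across the 6 libraries was most like the summed heavy chains were NCAPH2, a condensin subunit (Pearson r = 0.999), UBB, a polyubiquitin gene (0.999), EEF1B2, a translation elongation factor (0.998), AKR7A2, an aldo-keto reductase (0.998), and AHCY, which hydrolyses S-adenosylhomocysteine (0.998). They were the highest of 5313 candidates with a mean of at least 5 FPKM. These 6 points share the difference between the groups and the same scaling, and many genes reach such values. Their log2 fold changes lay between -0.77 for NCAPH2 and -0.33 for EEF1B2, around the values of HLA-B, HLA-C and HLA-E.

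Other genes of class I assembly were divided. The counts of this list and of those that follow stand beside 33.2% of all tested genes called lower and 35.1% called higher. Of 8 peptide loading and folding genes of the endoplasmic reticulum, 4 were lower, 2 higher and 2 did not pass, with a median log2 fold change of -0.08. The largest falls were in TAPBPL, the tapasin-related peptide editor (6.01 to 3.16 CPM, log2 fold change -0.92, edgeR adjusted p = 4.64e-06), and in UGGT1, the glucosyltransferase that returns badly loaded class I for another round (73.6 to 39.9 CPM, -0.88, edgeR adjusted p = 6.13e-11). The chaperone calreticulin (CALR, -0.18) and the export receptor BCAP31 (-0.15) fell less. Calnexin (CANX, 0.15) and the trimming peptidase ERAP2 (0.47, edgeR adjusted p = 0.0146) rose. ERAP1 (0.10, edgeR adjusted p = 0.4) and PDIA3 (-0.01, edgeR adjusted p = 0.847), the disulfide isomerase paired with tapasin, did not pass. Without siFSCN1 replicate 2 or without replicate 3 only 1 gene of the list was called higher. With library totals 2 genes of the list were called lower and 4 higher.

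The proteasome supplies the peptides. Of the 6 immunoproteasome and activator genes 5 were lower and none higher, beside 33.2% and 35.1% of all tested genes, with a median of -0.83, and 2 of them passed a fold change of 2. PSMB9, an interferon-inducible catalytic subunit, was at 17.8, 19.2 and 16.6 CPM in NC and at 5.08, 4.85 and 3.59 CPM in siFSCN1. Its groups were far apart, with 25.3% of the NC level left (log2 fold change -1.98, SE 0.12, edgeR adjusted p = 1.07e-10), beside 51.5% for TAP1. PSMB8 (-0.43, edgeR adjusted p = 9.79e-07) and PSMB10 (-0.70, edgeR adjusted p = 0.000248), the other inducible subunits, fell as well. Of the activator subunits, PSME2 fell to 51.9% of NC (-0.95, edgeR adjusted p = 1.83e-12), whereas its partner PSME1 did not pass (-0.10, edgeR adjusted p = 0.0679). With RLE scaling, with DESeq2, without NC replicate 2 or without siFSCN1 replicate 1, all 6 genes of the list were called lower. PSME3, which forms a nuclear activator, was at 42.9% (-1.22, edgeR adjusted p = 7.99e-15).

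The constitutive catalytic subunits, which the inducible ones replace, fell too, in 3 of 3 genes with a median of -0.70. Of all tested genes, 33.2% were called lower. PSMB7 was at 33.2% of NC (-1.59, edgeR adjusted p = 2.63e-14), PSMB5 at 61.7% (-0.70) and PSMB6 at 72.5% (-0.46). The ratio of inducible to constitutive subunit moved differently in each pair. The FPKM ratio of PSMB9 to PSMB6 was 0.0359, 0.0412 and 0.0337 in NC and 0.0141, 0.0135 and 0.0108 in siFSCN1, or 34.6% of NC. That of PSMB10 to PSMB7 rose from a mean of 0.0245 to 0.0454, or 185% of NC, and that of PSMB8 to PSMB5 from 0.0463 to 0.0558, or 120%. None of the 3 ratios overlapped between groups, and how often ratios of other genes do so was not tested.

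**Figure D3:**
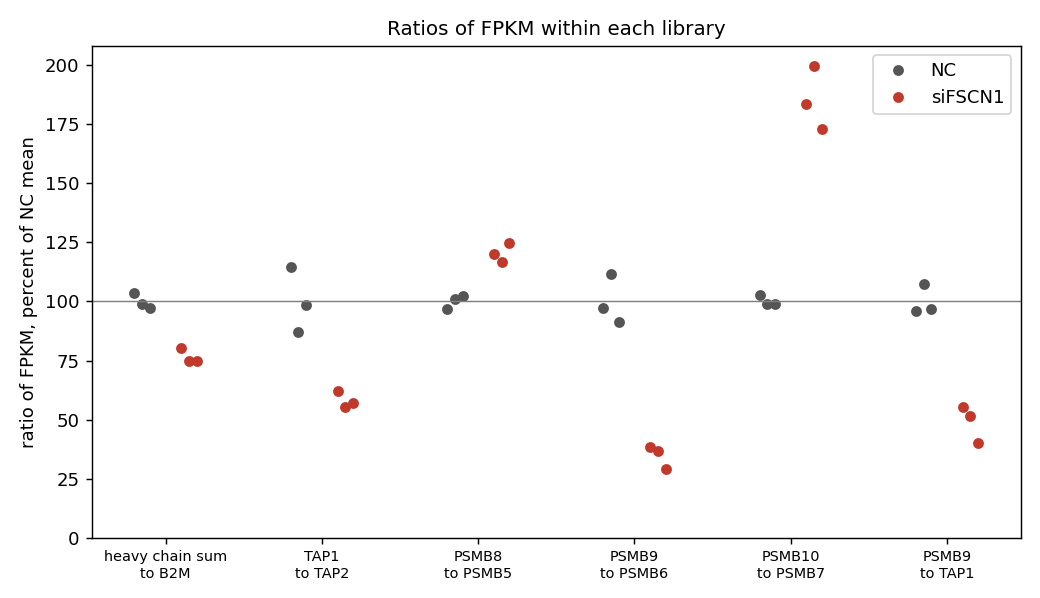
Ratios of FPKM within each library, in percent of the NC mean ratio (linear axis from 0), for 3 NC (grey) and 3 siFSCN1 libraries (red). The heavy chain sum to B2M lies at 76.6% in siFSCN1, TAP1 to TAP2 at 58.1%, PSMB9 to PSMB6 at 34.6% and PSMB9 to TAP1 at 49%, while PSMB8 to PSMB5 and PSMB10 to PSMB7 lie above the NC libraries.

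PSMB9 and TAP1 are neighbours on chromosome 6, transcribed away from each other from RefSeq start sites 488 bases apart (GRCh38), and both were lower. They did not fall equally, since the FPKM ratio of PSMB9 to TAP1 was 0.639, 0.715 and 0.644 in NC and 0.368, 0.343 and 0.268 in siFSCN1. Between the start sites the TAP1 side held the GAAANNGAAA and kappa B matches shown above, and the PSMB9 window held neither. The annotated exons of PSMB9 and TAP1 share no base.

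Of 6 cytosolic peptidases, which trim or destroy peptides before transport, 3 were lower and none higher, with a median of -0.06. THOP1 (-0.60), LAP3 (-0.21) and NPEPPS (-0.12, edgeR adjusted p = 0.0167) were lower. TPP2 (0.08), BLMH (0.06) and NRDC (0.0049) did not pass. With library totals 1 of the 6 was called lower and 3 higher.

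Among 16 transcription regulators of class I genes, 8 were lower, 4 higher and 4 did not pass, with a median of -0.23. With library totals 7 were called higher and 8 lower. The 3 with the largest change were SUZ12, a Polycomb repressor subunit (46.4 to 22.2 CPM, log2 fold change -1.06, edgeR adjusted p = 1.71e-12), IRF1, an interferon-induced activator (26.1 to 14.3 CPM, -0.87, edgeR adjusted p = 5.23e-10), and RELA, the NF-kappa B subunit p65 (90.2 to 49.5 CPM, -0.87, edgeR adjusted p = 2.02e-11). SUZ12 belongs to a complex that represses class I genes, while IRF1 and RELA activate them. In the interferon gamma receptor pathway all 7 genes passed, 4 lower and 3 higher, with a median of -0.19, beside 68.3% of all tested genes called in either direction. The kinase genes JAK2 (0.68, edgeR adjusted p = 0.000186) and JAK1 (0.14) and the receptor gene IFNGR1 (0.15) rose. The receptor gene IFNGR2 (-0.19) and the inhibitors of the pathway fell, namely SOCS1 (-1.13, edgeR adjusted p = 0.000516), SOCS3 (-0.34) and PTPN2 (-0.26). SOCS1 was a low transcript, at a mean of 1.66 CPM (SD 0.322, n = 3) in NC against 0.749 CPM (SD 0.0453, n = 3) in siFSCN1. Without NC replicate 3 only 1 gene of this pathway was called higher, and with library totals only 1 was called lower.

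Of 13 other class I and class I-like heavy chain genes, 10 could be tested, of which 5 were higher, 4 lower and 1 did not pass, with a median of 0.26. The largest changes were in ligands of the natural killer receptor NKG2D, and they went both ways. RAET1G rose from 2.80 to 6.61 CPM (log2 fold change 1.23, edgeR adjusted p = 5.23e-07) and ULBP1 from 2.39 to 4.37 CPM (0.87, edgeR adjusted p = 3.93e-05), while the more abundant MICB fell from 27.3 to 12.1 CPM (-1.17, edgeR adjusted p = 4.46e-11).

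A list of genes for class I surface turnover, glycosylation or intramembrane cleavage (the turnover list) was also divided. In it 3 of 8 were higher, 2 lower and 3 did not pass, with a median of 0.05. SUSD6, a membrane protein that with TMEM127 and WWP2 directs class I to lysosomes, rose from 7.53 to 14.6 CPM (log2 fold change 0.96, edgeR adjusted p = 2.44e-07), and the ligase WWP2 rose as well (0.34), but TMEM127 did not pass (0.04, edgeR adjusted p = 0.485). MARCHF4, a membrane ubiquitin ligase, fell from 5.59 to 1.88 CPM (-1.58, edgeR adjusted p = 5.4e-08) and its relative MARCHF9 fell less (-0.33). The oligosaccharyltransferase gene STT3B rose (0.23), and the intramembrane protease genes SPPL3 (0.07) and HM13 (0.02) did not pass. With library totals 6 of the 8 were called higher and 1 lower.

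MHC class II genes, which serve the presentation of endocytosed antigen, were mostly silent, as 5 of 9 were too low to test. The 3 largest changes were in HLA-DMB (9.81 to 21.9 CPM, log2 fold change 1.15, edgeR adjusted p = 6.05e-09) and HLA-DMA (5 to 8.82 CPM, 0.82, edgeR adjusted p = 5.55e-05), the chains of the class II peptide editor, which rose, and in the invariant chain gene CD74, which was lower (1.38 to 0.798 CPM, -0.78, edgeR adjusted p = 0.0468). CD74 varied within NC, at 2.28 CPM in replicate 1 against 0.911 and 0.934 CPM in replicates 2 and 3. The number of class II genes called lower was 2 with all libraries and 1 without NC replicate 1, without siFSCN1 replicate 2 or without siFSCN1 replicate 3, and none was called lower with library totals.

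**Figure D4:**
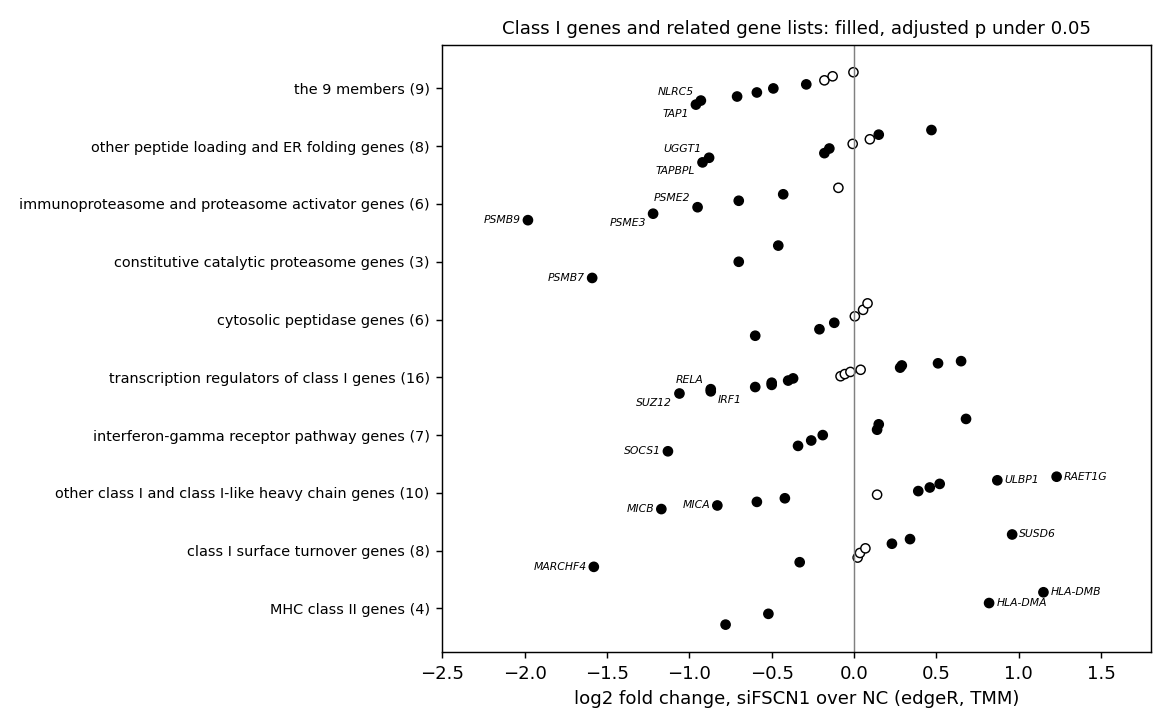
Log2 fold change (siFSCN1 over NC, edgeR with TMM) of each tested gene in the 9 members and in 9 related lists, with the number tested in brackets, filled where the adjusted p is under 0.05. With this scaling the members, both proteasome lists and the cytosolic peptidase list hold no gene called higher, whereas the other lists hold calls on both sides of 0.

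Across the 9 related lists, 54 of the 68 genes tested passed, 35 lower and 19 higher, beside 68.3%, 33.2% and 35.1% of all tested genes. The number called higher depended on the scaling and was 30 with library totals.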

How the data were processed

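RNA sequencing of polyadenylated RNA was available for 3 NC and 3 siFSCN1 libraries, grouped by sample title. The authors deposited a table of raw read counts per gene and a table of FPKM values, made from reads trimmed, aligned to GRCh38 with HISAT2 and kept where uniquely mapped. The submitters' processing notes name bcl2fastq and TopHat2. The kits marked strand, but the program, strand option and annotation used for counting are not given in the sources used here, so reads of overlapping genes may be assigned either way.

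Genes were kept by filterByExpr, scaled by TMM and tested with the quasi-likelihood method of edgeR 4.0.16 in R 4.3.3, without covariates, with Benjamini-Hochberg adjustment over all 17076 genes. The authors used DESeq2, run here as an alternative (DESeq2 1.42.0), as was limma 3.58.1 on log2(FPKM + 0.1) and log2(FPKM + 1). The fits were first run on simulated data in which few genes changed and as many rose as fell. In these data most genes were called, so that run does not bear on the choice of scaling. Standard errors came from the fold change and its F statistic, and intervals are 1.96 standard errors either side. The count of a gene limits its precision. An exact permutation test of 3 against 3 libraries cannot go below 0.1 and was not used.

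The members and gene lists were chosen with earlier results of these data known. The text names the 9 members, FSCN1, every gene of a list of up to 8 genes, the 3 largest called changes in longer lists, and the 5 genes with the highest Pearson r to the summed heavy chains. Positions and overlaps came from GENCODE v44 and promoters from RefSeq. Alternatives were RLE, upper quartile and library-total scaling, DESeq2, no filter and a stricter one (mean count of at least 10, with 1 CPM or more in at least 3 libraries), a block on the replicate number, each library left out in turn, and limma on FPKM. Subtracting a lowess trend of fold change on abundance and summing TAP2 with the readthrough gene were chosen after seeing the data. Deviations of same-numbered libraries correlated at -0.035, 0.04 and -0.084, so the numbers were not taken to pair the samples. No batch is given in the labels.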

Additional observations from a re-analysis of the deposited data

How the results depend on the processing

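The 6 genes called lower kept their direction and call under every alternative run, with HLA-C closest to the threshold. Ranges of the log2 fold change were -0.66 to -0.34 for HLA-B, -0.33 to -0.10 for HLA-C, -0.55 to -0.30 for HLA-E, -0.99 to -0.66 for TAP1, -0.79 to -0.51 for TAPBP and -1.14 to -0.16 for NLRC5, the last with log2(FPKM + 1), which understates low genes. B2M turned positive with upper quartile scaling (0.11, edgeR adjusted p = 0.0122), library totals (0.18, edgeR adjusted p = 0.00013), log2(FPKM + 0.1) and log2(FPKM + 1) (0.16 in both, limma adjusted p = 0.00281 and 0.00277) and with the abundance trend removed (0.29, edgeR adjusted p = 1.57e-06), so that 1 member was called higher under each of these 5. The number of members changed at least 2-fold was 0 to 1 when a library was left out, with NLRC5 added without siFSCN1 replicate 3, and 1 with the abundance trend removed (NLRC5, -1.14). Removing that trend also brought calls for HLA-F (-0.36, edgeR adjusted p = 0.0344) and TAP2 (-0.30, edgeR adjusted p = 0.0273). The ratio of heavy chains to B2M was 0.748 to 0.779 of NC when a library was left out. Of the related lists, 30 genes were called higher with library totals against 19. Over all alternatives the number called higher was 1 to 4 for loading and folding genes, 0 to 1 for inducible proteasome and activator genes, 0 to 3 for peptidases, 3 to 7 for regulators, 1 to 3 for the interferon pathway and 3 to 6 for turnover genes, and the number called lower was 2 to 4 for loading and folding genes, 5 to 6 for inducible proteasome and activator genes, 1 to 3 for peptidases, 1 to 4 for the interferon pathway, 1 to 2 for turnover genes and 0 to 2 for class II genes. Over all genes, the calls split as 5670 lower and 5993 higher with TMM, 4514 and 7195 with upper quartile scaling, 3838 and 7964 with library totals, and 3919 and 7478 with log2(FPKM + 0.1). The cause of these shifts was not tested. With the replicate block 11654 genes were called against 11663, and no member changed its call. No group had 4 libraries, so a library standing apart could not be tested for. At 94 to 126 counts per library, the interval for HLA-F includes a fall as large as that of HLA-C.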
